A study of Mus musculus with 15 samples.

Results

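The MAP kinase phosphatases (MKPs) are dual-specificity phosphatases that dephosphorylate ERK, p38 and JNK, and 8 of their genes were examined for crosslinking of tristetraprolin (TTP, encoded by Zfp36). The members were a fixed list of inducible nuclear enzymes (Dusp1, Dusp2, Dusp4 and Dusp5), the cytoplasmic ERK-selective Dusp6, and the p38- and JNK-selective Dusp8, Dusp10 and Dusp16. They are 8 of 21045 protein-coding genes with an annotated 3′UTR, and every sense-strand crosslink site within them was counted. Sense-strand sites were found in 6 of the 8 genes and 3′UTR sites in 5, with no site in Dusp5 or Dusp10 in any list.

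The data were individual-nucleotide resolution crosslinking and immunoprecipitation (iCLIP) sites, in which a UV crosslink between protein and RNA is mapped to 1 nucleotide and counted in unique cDNAs. All cells were TTP-deficient C57BL/6 bone marrow-derived macrophages, immortalised with the oncogenes hcmyc and hRasG12V and transduced with a tet-inducible vector encoding GFP-TTP or GFP-TTP-AA, in which S52A and S178A remove the serines phosphorylated by the p38-activated kinase MK2. Every group received doxycycline for 6 h and was stimulated with lipopolysaccharide (LPS) for 0 h, 1 h or 4 h, and both proteins were purified through the GFP tag from a transduced vector and not from the Zfp36 locus. The 15 samples formed 6 groups, but the files held 1 pooled list per group, so no value has a replicate error and each test compares 2 lists, not 2 conditions.

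The GFP-TTP lists pooled 2, 4 and 2 libraries at 0 h, 1 h and 4 h and held 4369, 9558 and 906 3′UTR cDNAs. The GFP-TTP-AA lists pooled 2, 3 and 2 libraries and held 6008, 93510 and 1000. Of 8 macrophage markers, 7 had 3′UTR cDNAs in the 1 h GFP-TTP-AA list, with 347 cDNAs in total there and 74 in the GFP-TTP list, and the marker without any was Fcgr3. None of 17 markers of T cells, B cells, fibroblasts, epithelial cells or neutrophils had a 3′UTR cDNA in any list. Only sites that passed the authors' false-discovery rate were listed, and a 0 therefore means that no site was listed and not that crosslinking was absent.

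Some MKP genes, Dusp1 among them, are immediate early genes in activated macrophages, where p38 and ERK signalling induces phosphatases that then switch the same kinases off. Dusp1 (MKP-1) is the best studied of these feedback inhibitors and limits cytokine production after LPS. TTP binds AU-rich elements in the 3′UTRs of short-lived mRNAs and recruits deadenylases, and MK2 phosphorylates TTP downstream of p38. Such elements contain AUUUA pentamers, and the nonamer UUAUUUAUU, which holds a single pentamer, is the classical optimal site.

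The stretches of 3′UTR around which the results turn are printed first, as RNA of the sense strand in GENCODE M21 transcripts (GRCm38/mm10), 29 nt each, with AUUUA in capitals. The first 3 lines are the 3 AU-rich elements of Dusp1 in 5′ to 3′ order, shown because both proteins were listed at elements 2 and 3 and only GFP-TTP-AA at element 1. Elements 1 and 2 contain UUAUUUAUU, and element 1 has overlapping pentamers.
Dusp1 element 1, chr17:26506157-26506185, minus strand: gcugguccuuAUUUAUUUAacaccccccu
Dusp1 element 2, chr17:26505870-26505898, minus strand: guuuuuaccuuuAUUUAuuuuuguguagg
Dusp1 element 3, chr17:26505674-26505702, minus strand: guauguuuguuuAUUUAugaucugaagua

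The next 5 lines show a Dusp1 stretch without AUUUA that was listed for GFP-TTP-AA alone, picked with its values in view, together with the most crosslinked stretch or element of the other bound members. The Dusp6 line is the only one of these 4 other members that contains no AUUUA, and its U run is given below.
Dusp1 3′ terminal stretch, chr17:26505613-26505641, minus strand: acugggaugacuuuuuuuauacaacagaa
Dusp2 element 4, chr2:127338304-127338332, plus strand: acagcacuuuauAUUUAuauagaacauug
Dusp4 element 1, chr8:34819046-34819074, plus strand: uugcagguagaaAUUUAccucauuauuau
Dusp6 U run, chr10:99267176-99267204, plus strand: ggguucacuuuuuuuuuuuuuuuuaaaua
Dusp8 element 1, chr7:142081713-142081741, minus strand: ucgauuuuuuAUUUAUUUAagcuagugau

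The last 3 lines are elements of the members with no 3′UTR site, shown because Dusp10 and Dusp16 carry the same overlapping pentamers as the bound element 1 of Dusp1. They lack the nonamer UUAUUUAUU that element 1 of Dusp1 contains, as do the printed lines of the bound Dusp2, Dusp4 and Dusp6.
Dusp5 element, chr19:53541978-53542006, plus strand: gacuuuggugugAUUUAaaaaaaaaaaua
Dusp10 element 1, chr1:184075517-184075545, plus strand: aaaaacaaaaAUUUAUUUAaaaaauauuu
Dusp16 element 2, chr6:134715962-134715990, minus strand: guaagauguaAUUUAUUUAagaaugaaaa

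AUUUA was searched on the sense strand only, and occurrences that overlapped were merged into 1 element. It occurred in 65.2% of all 3′UTRs and in 4.54% of all 29-nt windows of 3′UTRs, UAUUUAU in 27.6% of 3′UTRs and UUAUUUAUU in 7.65%. All 8 members had at least 1 AUUUA and together 19 elements. UUAUUUAUU was found in Dusp1 and Dusp8 only, and Dusp1 and Dusp2 had the most AUUUA per kb, 5.80 and 6.89. A match is a description of the letters and not a binding site.

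Without LPS, none of the 8 members had a listed cDNA in either list. After 1 h of LPS, GFP-TTP was listed on the 3′UTR of Dusp1 alone, and GFP-TTP-AA on those of Dusp1, Dusp2, Dusp4, Dusp6 and Dusp8. After 4 h, no member had a 3′UTR cDNA in either list, and the only listed site was 1 intronic site of Dusp16 with 2 cDNAs for GFP-TTP. Of all 21045 genes, 3.51% and 4.25% had a 3′UTR site at 0 h for GFP-TTP and GFP-TTP-AA, 6.15% and 21.2% at 1 h, and 0.603% and 0.941% at 4 h, and 0 of 8 members at 0 h and 4 h is therefore read against small background shares. No member had a cDNA in its coding sequence, its 5′UTR or on its antisense strand at any time. The 3′UTRs held 281 of the 304 sense cDNAs of the members in the 1 h GFP-TTP-AA list, or 92.4% (Wilson 95% interval, 88.9 to 94.9%), and introns held the other 23. The lists contain no measure of mRNA abundance, so the amount of a transcript and its crosslinking per molecule cannot be told apart.

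**Figure D1:**
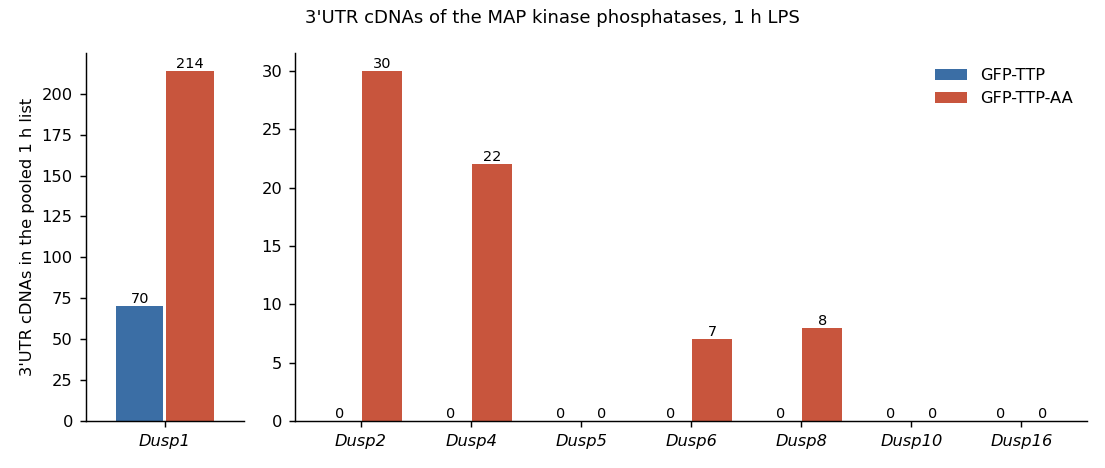
Unique 3′UTR cDNAs of the 8 members in the pooled 1 h lists, GFP-TTP in blue and GFP-TTP-AA in red, with Dusp1 on its own axis; each bar is 1 pooled list, without error bars because there are no replicate values. Dusp1 had 70 and 214 cDNAs, and the other bound members had between 7 and 30 for GFP-TTP-AA and none in blue.

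The question between proteins was whether loss of the MK2 phosphorylation sites changed which MKP transcripts were bound. Dusp1 (ENSMUSG00000024190.7, chromosome 17, 3′UTR 26505590 to 26506279, 690 nt in 1 exon) had 32 sites with 70 cDNAs for GFP-TTP and 108 sites with 214 cDNAs for GFP-TTP-AA at 1 h. GFP-TTP-AA thus gave 3.06 times as many cDNAs (exact conditional 95% interval, 2.32 to 4.06), whereas 3′UTRs as a whole gave 9.78 times as many. As a share of the 3′UTR cDNAs of its list, Dusp1 was higher for GFP-TTP, 0.732% (0.580 to 0.924%) against 0.229% (0.200 to 0.262%). The log2 ratio of the shares, GFP-TTP-AA over GFP-TTP, was −1.69 with an adjusted p of 4.22e-12 (two-sided Fisher exact test, Benjamini-Hochberg over 2065 genes). Dusp1 was the only 1 of 3 tested members past the threshold, and 4.41% of all genes tested were likewise called higher for GFP-TTP and 1.99% higher for GFP-TTP-AA.

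The direction for Dusp1 turned with the denominator. Of all cDNAs of the list, 3′UTRs held 9.63% for GFP-TTP and 53.6% for GFP-TTP-AA. Against all cDNAs the log2 ratio was 0.79, higher for GFP-TTP-AA, with an adjusted p of 1.13e-04 in the same Fisher test. This was the only 1 of 6 alternatives in that direction. Over all 6, the log2 ratio ran from −2.03 to 0.79 and the adjusted p of the Fisher test from 3.19e-13 to 3.81e-04. Against all cDNAs of the list, 84.9% of all genes tested were called higher for GFP-TTP-AA. Dusp1 therefore carried more cDNAs in the GFP-TTP-AA list in absolute number and per listed cDNA, and a smaller part of the 3′UTR cDNAs. By number of 3′UTR cDNAs Dusp1 ranked 15 of 1295 genes with a site for GFP-TTP and 37 of 4468 for GFP-TTP-AA. Per kb of 3′UTR these were 101 and 310 cDNAs, the highest of the 8 members for both proteins.

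Among the other nuclear phosphatases, Dusp2 (PAC-1, an inducible phosphatase of haematopoietic cells; ENSMUSG00000027368.6, 3′UTR of 581 nt) had no GFP-TTP cDNA and 21 sites with 30 cDNAs for GFP-TTP-AA, or 51.6 per kb. Dusp4 (MKP-2; ENSMUSG00000031530.6, 1111 nt) was listed at 0 for GFP-TTP and had 14 sites with 22 cDNAs for GFP-TTP-AA, or 19.8 per kb. Neither passed the Fisher test of the shares, with an adjusted p of 0.391 for Dusp2 and 0.567 for Dusp4. In both genes a list with 0 cDNAs was set against one with 9.78 times as many 3′UTR cDNAs, a depth at which such counts could not be told from equal shares. Against all cDNAs of the list both passed in the direction of GFP-TTP-AA, with adjusted p of 1.10e-05 (range over 6 alternatives to 0.829) and 1.96e-04 (to 0.919), but so did 84.9% of all genes tested. Dusp5 (ENSMUSG00000034765.6, 1109 nt), an ERK-selective nuclear phosphatase, had no site.

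Dusp6 (MKP-3, which holds and inactivates ERK in the cytoplasm; ENSMUSG00000019960.8, 1190 nt) had 6 sites with 7 cDNAs for GFP-TTP-AA and none for GFP-TTP. Dusp8 (ENSMUSG00000037887.11, 2370 nt), of the JNK- and p38-selective class, had 8 sites with 1 cDNA each for GFP-TTP-AA and none for GFP-TTP. These counts were below the minimum of 10 cDNAs, and neither gene was tested. Dusp10 (MKP-5; ENSMUSG00000039384.8, 1113 nt) and Dusp16 (MKP-7; ENSMUSG00000030203.17, 2416 nt) had no 3′UTR site. The members of the same class therefore differed in whether a 3′UTR site was listed, both among nuclear and among p38- and JNK-selective enzymes.

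**Figure D2:**
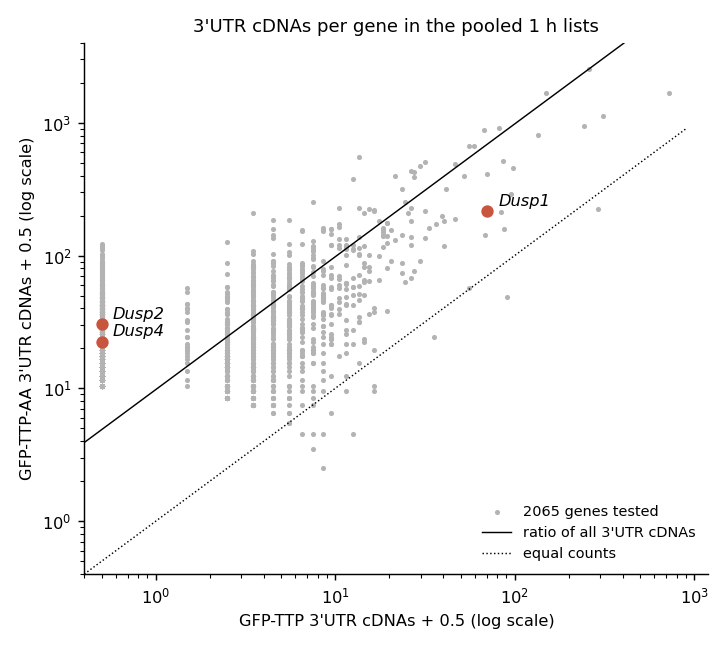
3′UTR cDNAs plus 0.5 of each of the 2065 genes tested at 1 h, GFP-TTP on the horizontal and GFP-TTP-AA on the vertical log axis, with the 3 tested members in red. Dusp1, at 70 and 214 cDNAs, sits below the solid line that marks the 9.78-fold ratio of all 3′UTR cDNAs and above the dotted line of equal counts, and Dusp2 and Dusp4 sit in the column of genes with 0 GFP-TTP cDNAs.

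Over time, the counts for Dusp1 with GFP-TTP were 0, 70 and 0 cDNAs at 0 h, 1 h and 4 h, and those with GFP-TTP-AA were 0, 214 and 0. Between 0 h and 1 h the listed share of Dusp1 rose in both proteins, with an adjusted p of 2.03e-10 for GFP-TTP and 1.13e-04 for GFP-TTP-AA (Fisher exact test, Benjamini-Hochberg over 276 and 2052 genes). The same call in that direction was made for 23.9% of the genes tested for GFP-TTP and for 2.73% of those tested for GFP-TTP-AA. Against all cDNAs of the list these backgrounds were 11.6% and 22.7%, and Dusp1 was called in both proteins by that denominator too. With 0 cDNAs at 0 h, Dusp1 reached the minimum of 10 cDNAs for these tests through its 1 h counts alone. The tests also take each 0 as a true count, although it means only that no site was listed. The p-values of Dusp1 therefore describe the listed cDNAs and do not show that crosslinking was absent at 0 h. Dusp2 and Dusp4 with GFP-TTP-AA went from 0 to 30 and from 0 to 22 cDNAs, with adjusted p of 0.624 and 0.911. At their 1 h shares, the 0 h GFP-TTP-AA list would have held 1.93 cDNAs of Dusp2, 1.41 of Dusp4, 0.450 of Dusp6 and 0.514 of Dusp8, so their absence at 0 h was not informative at this depth. The headers of the 1 h lists alone carry a mark, regionAsOne, from peak calling, so the time of LPS and that setting cannot be told apart.

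At 4 h the lists were shallow. Had Dusp1 kept its 1 h share, 6.64 cDNAs would have been listed for GFP-TTP at 4 h and 2.29 for GFP-TTP-AA, and a loss from 1 h to 4 h was not detectable at this depth for GFP-TTP-AA. For the other 4 members bound by GFP-TTP-AA the same calculation gave between 0.0749 and 0.321 cDNAs. No member reached the minimum for a test between proteins at 0 h or 4 h.

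Within the Dusp1 3′UTR the 2 proteins were listed over different lengths. The GFP-TTP sites lay between nt 385 and 604 after the stop codon and the GFP-TTP-AA sites between nt 102 and 667. At element 1, nt 85 to 133 with 20 nt on either side of the pentamers, there were 0 GFP-TTP and 25 GFP-TTP-AA cDNAs, and this element was therefore listed for GFP-TTP-AA alone. Element 2, nt 374 to 418, had 42 and 61 cDNAs, or 60.0% (48.3 to 70.7%) and 28.5% (22.9 to 34.9%) of the cDNAs on this 3′UTR. Element 3, nt 570 to 614, had 27 and 64, or 38.6% (28.1 to 50.3%) and 29.9% (24.2 to 36.3%). Element 2 therefore held a larger part of the listed GFP-TTP cDNAs, with intervals that did not overlap and that cover counting error only. The intervals for element 3 overlapped. The totals behind these shares differ in kind. GFP-TTP-AA had 25 cDNAs at element 1, 44 at nt 615 to 690 and 20 elsewhere, where GFP-TTP had 0, 0 and 1. Whether the proteins differ between elements 2 and 3 alone, with 42 and 27 against 61 and 64 cDNAs, was not tested.

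Beyond element 3, nt 615 to 690 held no GFP-TTP cDNA and 27 GFP-TTP-AA sites with 44 cDNAs, or 20.6% (15.7 to 26.5%) of the total. The printed terminal stretch, nt 639 to 667, accounted for 28 of the 44, its strongest single site at nt 653 having 4. The hexamer AAUAAA, the canonical polyadenylation signal, lay at nt 666 to 671, where these sites end. AAUAAA was present within the last 50 nt of 7 of the 8 members and of 61.2% of all 3′UTRs, and this stretch was singled out after its values were seen. Outside the elements and this stretch, 1 GFP-TTP and 20 GFP-TTP-AA cDNAs remained. Had the 70 GFP-TTP cDNAs been spread like those of GFP-TTP-AA, 8.18 would have lain at element 1 and 14.4 in the terminal stretch, against 0 listed at each. The terminal stretch was picked with its 0 in view, and both values leave out the authors' filter on sites. No conclusion is therefore drawn from them. The lower 3′UTR depth of the GFP-TTP list went together with the missing stretches, and its part in them was not tested. Sites with at least 2 cDNAs accounted for 14 of the 25 GFP-TTP-AA cDNAs at element 1 and 31 of the 44 in the terminal stretch.

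**Figure D3:**
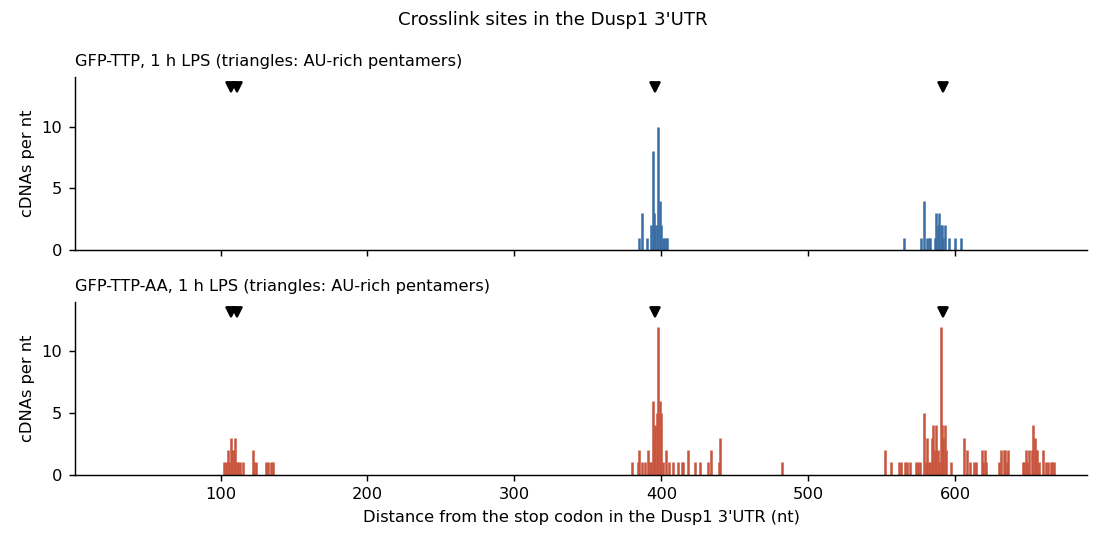
Unique cDNAs at each nucleotide of the 690-nt Dusp1 3′UTR in the pooled 1 h lists, by distance from the stop codon, GFP-TTP above and GFP-TTP-AA below, with triangles at the AUUUA pentamers. GFP-TTP sites form 2 groups at elements 2 and 3, and GFP-TTP-AA sites add element 1, the stretch after nt 615 and scattered sites between the elements.

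At single-nucleotide level the 2 proteins shared the strongest position. The top site in both lists was nt 398 (chromosome 17, position 26505882), the last A of the pentamer in element 2, with 10 GFP-TTP and 12 GFP-TTP-AA cDNAs. For GFP-TTP-AA the first A of element 3, at nt 590, tied with 12 cDNAs, where GFP-TTP had 2. Of the 32 GFP-TTP sites, 24 coincided with a GFP-TTP-AA site to the nucleotide and all 32 had one within 15 nt. In the other direction, 57 of the 108 GFP-TTP-AA sites of Dusp1 had a GFP-TTP site within 15 nt. U was the crosslinked base at 68.8% of the 32 GFP-TTP sites and 61.1% of the 157 GFP-TTP-AA sites of the members, beside 63.7% and 61.6% of all 3′UTR sites of the 1 h lists, shares close to those of the members.

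AUUUA lay wholly within 20 nt of 31 of the 32 GFP-TTP sites, or 96.9% (84.3 to 99.4%). For GFP-TTP-AA this held for 97 of 157 sites over the 5 bound members, or 61.8% (54.0 to 69.0%), and for 58 of 108 sites in Dusp1, or 53.7% (44.3 to 62.8%). Of all positions in the Dusp1 3′UTR 16.7% are that close to AUUUA, and of all positions in the 5 bound 3′UTRs 8.45%. Over all 3′UTR sites of the 1 h lists the shares were 37.7% for GFP-TTP and 34.6% for GFP-TTP-AA. Both were lower than the 96.9%, which is Dusp1 alone, and the 61.8% over the 5 bound members. Among these the GFP-TTP-AA share ran from 0% in Dusp6 to 100% in Dusp2 and Dusp8. This is a description with no test because neighbouring sites are not independent. The share of all 3′UTR positions near AUUUA was not computed. The GFP-TTP-AA sites of Dusp1 away from AUUUA were 50 sites with 72 cDNAs, between nt 131 and 667, whereas GFP-TTP had 1 such site with 1 cDNA at nt 565.

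The other members bound by GFP-TTP-AA differed in how their sites related to AUUUA. Dusp2 sites lay at all 4 of its elements, every one of the 21 near AUUUA, and 16 of 30 cDNAs lay at element 4. The top Dusp2 site was nt 521, the first A of that pentamer, with 5 cDNAs. Dusp4 sites formed 1 group between nt 244 and 298 around element 1 of its 2, 10 of 14 within 20 nt of the whole pentamer, and element 2 had none. The top Dusp4 site, nt 259, had 3 cDNAs, as did 1 other site. Dusp8 sites lay at nt 121 to 1719 in 2 groups of 4 cDNAs at elements 1 and 3 of its 4, each near UAUUUAU.

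Dusp6 was the exception among the bound members, with none of its 6 sites near its single AUUUA at nt 1133. Its cDNAs lay at nt 428 to 429 and at a run of 16 U, nt 885 to 900, the longest U run of any member, where 5 of the 7 were found within 20 nt. The longest run of Dusp5 was 12 U and that of Dusp1 11 U, and neither had a cDNA within 20 nt. In all, 10 of the 19 elements had GFP-TTP-AA cDNAs within 20 nt of their edges and 2 had GFP-TTP cDNAs, both in Dusp1. Overlapping pentamers were also present in genes without a 3′UTR cDNA, since element 1 of Dusp10 and element 2 of Dusp16 have the same 9 bases in capitals as element 1 of Dusp1 and had no cDNA. The bases around the capitals differ, and Dusp10 and Dusp16 have neither UAUUUAU nor UUAUUUAUU, both present in element 1 of Dusp1. Of the bound members, Dusp4 and Dusp6 also have neither and Dusp2 has no UUAUUUAUU, with 22, 7 and 30 GFP-TTP-AA cDNAs. What sets the elements without cDNAs apart was not tested.

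**Figure D4:**
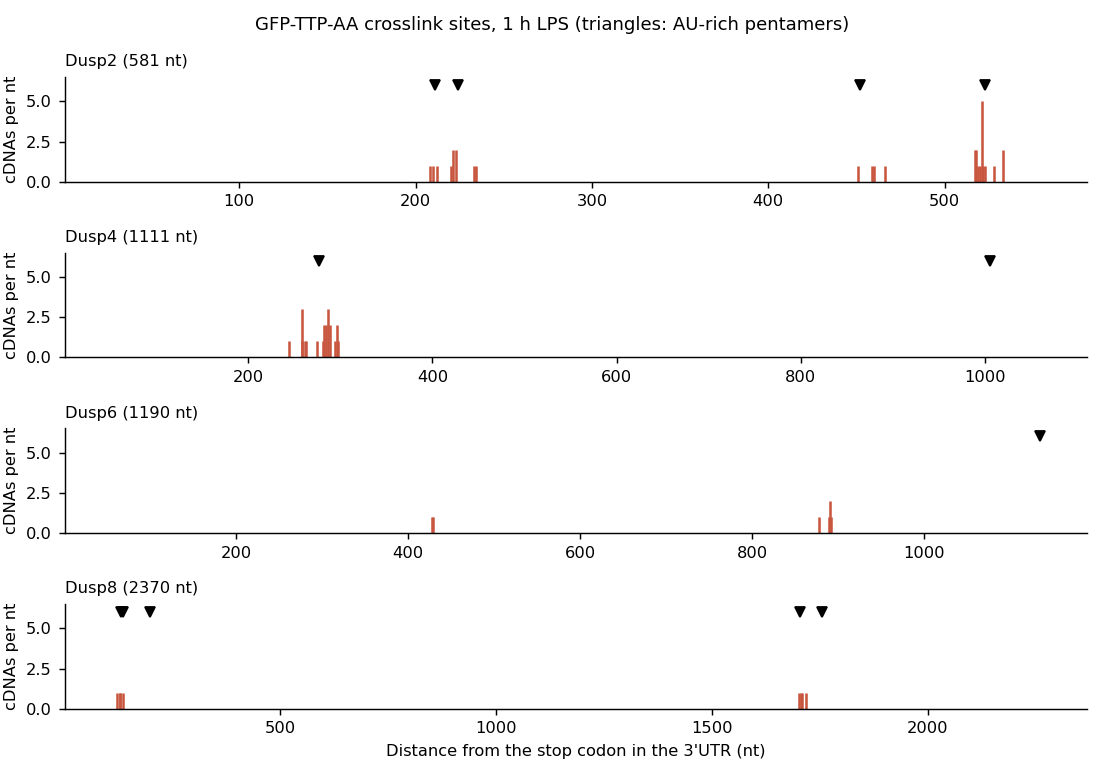
Unique GFP-TTP-AA cDNAs at each nucleotide of the 3′UTRs of Dusp2, Dusp4, Dusp6 and Dusp8 in the pooled 1 h list, by distance from the stop codon, with triangles at the AUUUA pentamers. Sites of Dusp2 and Dusp8 sit at pentamers, those of Dusp4 at the first of 2, and those of Dusp6 away from its only pentamer.

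Dusp4 also had sense-strand sites past its annotated end, outside the genes as the rule counts them. They formed a cluster 1956 to 2026 nt after that end in an unannotated stretch (chr8:34821850-34821920, GRCm38/mm10), with 11, 25 and 2 cDNAs at 0 h, 1 h and 4 h for GFP-TTP and 3, 140 and 6 for GFP-TTP-AA. The cluster was thus listed in all 6 groups, unlike the annotated 3′UTR, and 2 further GFP-TTP cDNAs lay nearer to the gene, from 209 nt after its end. Over the 5000 nt downstream, GFP-TTP had 0.0328%, 0.0272% and 0.00688% of all cDNAs of its lists at 0 h, 1 h and 4 h. The GFP-TTP share, unlike its count, therefore did not rise from 0 h to 1 h. For GFP-TTP-AA the shares were 0.00920%, 0.0803% and 0.0313%. At 1 h the ratio of the proteins over this stretch was 5.19 (exact conditional 95% interval, 3.42 to 8.15), on 27 and 140 cDNAs, beside 9.78 for all 3′UTR cDNAs. At 0 h it was 0.273 (0.049 to 1.03), on 11 and 3 cDNAs. The top site, 2006 nt after the end, had 26 GFP-TTP-AA cDNAs, more than the whole annotated Dusp4 3′UTR. Of 21045 genes, 219 had an intergenic sense cDNA of the 1 h GFP-TTP-AA list within 5000 nt of their end, and none but Dusp4 had 140 or more. Whether these cDNAs belong to a longer Dusp4 transcript cannot be told from the lists, and none of the other 7 members had any such cDNA.

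**Figure D5:**
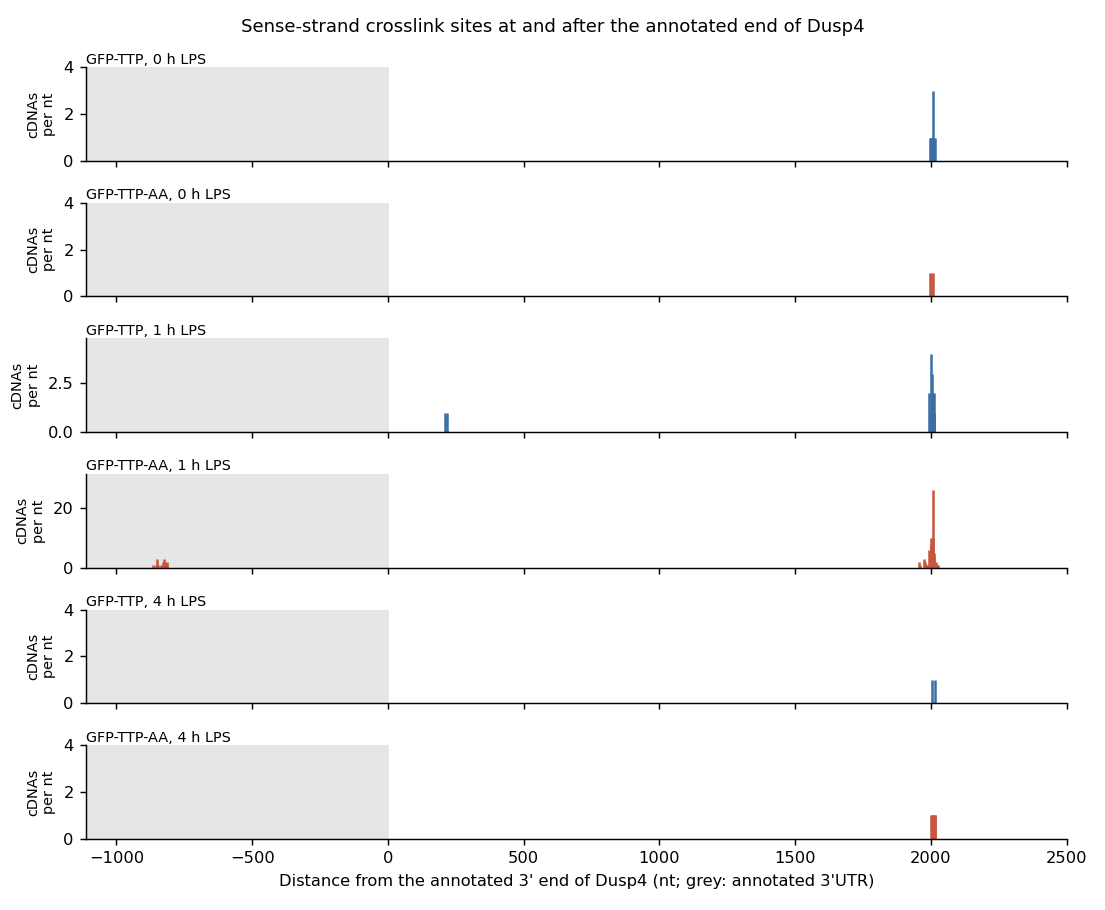
Unique sense-strand cDNAs at each nucleotide from the start of the annotated Dusp4 3′UTR (grey) past its end in the 6 pooled lists, each panel with its own vertical scale. The cluster about 2006 nt past the end appears in every list, from 2 cDNAs at 4 h with GFP-TTP to 140 at 1 h with GFP-TTP-AA, and the annotated 3′UTR has sites only in the 1 h GFP-TTP-AA list.

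Intronic sites were few and were listed in Dusp16 and Dusp8 only. Dusp16, a nuclear-cytoplasmic shuttling phosphatase of JNK and p38, had 18 intronic sites with 21 cDNAs in 4 clusters for GFP-TTP-AA at 1 h. Its largest cluster had 9 cDNAs over 34 nt (chr6:134753784-134753817, minus strand). The GFP-TTP intronic site at 4 h lay elsewhere, at position 134778091. Dusp8 had 2 intronic GFP-TTP-AA sites with 1 cDNA each at 1 h. The intron sequences were not analysed here.

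Of the rest of the MKP family, Dusp7, a close relative of Dusp6, had 8 GFP-TTP-AA cDNAs and no GFP-TTP cDNA at 1 h, and Dusp9 had none. Among 9 atypical dual-specificity phosphatases 3 had 3′UTR cDNAs at 1 h, 3 for GFP-TTP and 54 for GFP-TTP-AA in total, led by Dusp3 with 3 and 28 and Dusp11 with 0 and 23. The substrates, 9 MAP kinases, had 4 and 46, of which Mapk14 (p38α) had 0 and 23. The 8 upstream kinases of the MAP2K and MAP3K classes had 5 and 88, led by Map2k1 (MEK1) with 0 and 28 and Map3k7 (TAK1) with 2 and 18. None of the 9 genes tested in these 3 lists passed the Fisher test in either direction, and their median log2 ratios of shares were 1.00, 0.62 and 1.10 beside 1.23 over all 2065 genes. With the pseudocount of 0.5, a gene with 0 GFP-TTP and 10 GFP-TTP-AA cDNAs had a log2 ratio of 1.10. With 0 and 11 cDNAs the ratio was 1.23, the median over all genes. A positive median is therefore not read as a higher share for GFP-TTP-AA. Of all 2065 genes, 41 were called higher for GFP-TTP-AA and 91 higher for GFP-TTP. The first of these medians rests on 2 genes, and the list does not include Dusp15, noted after its values were seen, which had 4 GFP-TTP and 6 GFP-TTP-AA cDNAs, a log2 ratio of −2.76 and an adjusted p of 0.107 in the Fisher test. Dusp1 therefore had more GFP-TTP cDNAs at 1 h, 70, than all 28 of the listed other genes together, 12.

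The genes whose distribution over the 6 lists was most like that of Dusp1 were Arpc2, Pim3, Hspa5, Ptgs2 and Csrnp1. Their cosine similarities, on the square roots of the share of each list, were 0.989, 0.987, 0.977, 0.970 and 0.955, against a median of 0.543 over 162 genes with at least 100 cDNAs. All 5 were at 0 in the 0 h and 4 h lists, with 11 to 18 GFP-TTP and 87 to 155 GFP-TTP-AA cDNAs at 1 h. Each had fewer GFP-TTP cDNAs than Dusp1. Since Dusp1 and these 5 genes had cDNAs in the 1 h lists only, the similarity depends on their ratio of shares at 1 h alone. A high value still left room for unlike ratios. Arpc2, Hspa5 and Csrnp1 had log2 ratios of shares of −0.78, −0.38 and 0.10, none past the threshold, beside −1.69 for Dusp1.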

How the data were processed

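Crosslink sites were taken from 6 deposited lists, 1 per protein and LPS time. Per the file headers and the values, the score of a site is the number of unique cDNAs at 1 nucleotide, with the sign giving the strand. According to the methods, the authors demultiplexed the reads, collapsed PCR duplicates by 4 random bases, mapped unique reads to mm10 with Bowtie (Ensembl 75) and took the preceding nucleotide as the crosslink site. The authors then summed libraries and kept sites with a false-discovery rate below 0.05 in iCount (100 permutations, 15 nt). The 1 h headers alone add regionAsOne, whose effect is not given in the sources used here.

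Sites were assigned on GENCODE M21 (GRCm38, the same assembly as mm10; a later annotation than that of the authors) in the order 3′UTR, coding sequence, 5′UTR, non-coding exon and intron, with 1-based positions using for each gene its longest 3′UTR. Genes with at least 10 3′UTR cDNAs over 2 lists were compared with the remaining 3′UTR cDNAs by Fisher exact tests (two-sided), adjusted by Benjamini-Hochberg over all genes tested, with a threshold of 0.05 and a pseudocount of 0.5 in log2 ratios. Shares have Wilson and ratios exact conditional 95% intervals, which cover counting error only. The lists held 19167 to 174397 cDNAs. Python 3.11.15, numpy 2.4.6, scipy 1.17.1 and matplotlib 3.10.9 were used, and the calculations were tested on simulated data.

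The named genes were the 8 members, the other MKP genes, from 3 lists of pathway genes the 2 with most 3′UTR cDNAs at 1 h, the 5 genes most similar to the member with most cDNAs, and the top site of each member. A gene that this rule names is not reported here. The members and lists were chosen with earlier results of these data known.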

Additional observations from a re-analysis of the deposited data

Results flagged for a closer look

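The sense-strand cDNAs within 5000 nt downstream of the annotated end of Dusp4 were singled out because they lie outside the genes counted above and number more than the 3 counts taken as the limit of a count of 0. They numbered 11 in the GFP-TTP list at 0 h, 27 in the GFP-TTP list at 1 h, 140 in the GFP-TTP-AA list at 1 h and 6 in the GFP-TTP-AA list at 4 h. No control library was among the files used here.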

How the results depend on the processing

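The lists are sums over libraries, so no library could be left out and no spread between replicates exists. No paired analysis was possible because only pooled lists were used. Depth limits the 4 h lists, and all members but Dusp1 in the 1 h GFP-TTP and the 0 h lists. Dusp1 stayed past the threshold at 1 h in all 6 alternatives, with log2 ratios from −2.03 to 0.79 and adjusted p from 3.19e-13 to 3.81e-04 (Fisher exact test), and its direction turned only against all cDNAs of the list, to 0.79. The ratio of GFP-TTP-AA to GFP-TTP cDNAs over the members, 4.01, stayed between 3.43 and 4.91, including an alternative with downstream sites that was added after the data were seen. Counts of called genes moved by over 1.5 times as follows, and fewer genes could be tested where cDNAs or sites were dropped. Between proteins at 0 h, 74 genes became 156 with a minimum of 5 cDNAs, 31 with sites counted once and 31 with sites of at least 2 cDNAs. At 1 h, 132 became 64 with sites of at least 2 cDNAs and 1763 against all cDNAs, of which 1754 were higher for GFP-TTP-AA, and at 4 h 17 became 51, 7 and 10 under the 3 settings used at 0 h. From 0 h to 1 h, 131 genes for GFP-TTP became 67 with sites counted once and 47 with sites of at least 2 cDNAs, and 255 for GFP-TTP-AA became 90 with sites of at least 2 cDNAs and 503 against all cDNAs. The share of GFP-TTP sites near AUUUA, 96.9%, was 71.9% within 10 nt, 100% within 50 nt and 100% for sites of at least 2 cDNAs. The share of GFP-TTP-AA sites, 61.8%, was 40.8% within 10 nt, 84.7% within 50 nt, 70.1% weighted by cDNAs, 46.5% for UAUUUAU and 79.6% without Dusp1. GFP-TTP sites with a GFP-TTP-AA site fell from 100% within 15 nt to 75% at the same nucleotide, and values for GFP-TTP without Dusp1 could not be had because no site remained. Beyond the number of genes or sites left, the cause of these changes was not tested.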
